A study of Mus musculus with 35 samples.

Results

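The transcripts described here are those of 9 genes of the YAP-TEAD programme: Ccn1, Ccn2, Ankrd1, Axl, Amotl2, Ajuba, Lats2, Tead1 and Yap1. They were chosen by symbol, with earlier results of these data known, and all 9 were found among the 17948, 18091 and 17705 genes of the day 3, Dnmt1 and Tet3-CD experiments. Levels are normalized counts, that is, reads per gene divided by a size factor that puts the libraries of one experiment on one scale. The members span from 149 for Ankrd1 to 35410 for Ccn1, and all 9 passed the low-value filter, a mean of at least 10 normalized counts, in each experiment.

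YAP, encoded by Yap1, is a transcriptional coactivator that binds DNA through TEAD proteins such as TEAD1. The Hippo kinases LATS1 and LATS2 phosphorylate YAP and hold it in the cytoplasm, while cell spreading, stiff substrates and actin tension let it enter the nucleus. Ccn1 (also called Cyr61) and Ccn2 (also called Ctgf), which encode secreted matricellular proteins, and Ankrd1, which encodes an ankyrin repeat protein, are the transcripts most used to read YAP-TEAD activity. Axl, a receptor tyrosine kinase for GAS6, is another target. Amotl2, Ajuba and Lats2 are targets whose products act back on the pathway: AMOTL2 binds YAP at cell junctions, AJUBA is a LIM protein that binds and restrains LATS kinases, and LATS2 phosphorylates YAP. In the early embryo and in embryonic stem cells (ESCs) the pathway is known for its part in lineage choice.

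The study asked which genes depend on the catalytic activity of TET3, a dioxygenase that oxidizes 5-methylcytosine, and which on its other functions. V6.5 mouse ESCs, a male line of mixed background, were Tet3+/+, Tet3m/m (both alleles carry point mutations in the iron-binding site that abolish catalysis) or Tet3-/- (an exon deleted with CRISPR so that the frame is lost). All cells were taken off feeder cells, then driven towards neuroectoderm (NE) by withdrawal of LIF and addition of 1 µM retinoic acid (RA), and the labels give 72 h of this treatment for every sample. The samples belong to 3 experiments whose values were normalized separately. The day 3 experiment holds 3 Tet3+/+, 3 Tet3m/m and 2 Tet3-/- samples, which the study describes as independent clones. The Dnmt1 experiment holds 2 samples of each genotype with an empty vector and 2 with myc-Dnmt1, driven by the ubiquitous CAG promoter, transfected at day 0 and selected with blasticidin. The Tet3-CD experiment holds 1 sample of each genotype with an empty vector and 1 with the HA-tagged TET3 catalytic domain (Tet3-CD), carried with tdTomato. Here the study's methods place transfection on day 2 and collection 2 days later, which makes a longer time than the labels' 72 h. They name no selection step for these samples. The sources used here do not state whether the 2 samples of a group in the Dnmt1 experiment were separate clones, so p-values there measure only the spread between those samples, which may be technical.

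Recovered reads per library ranged from 31155842 to 50845950 over the 26 libraries. The targeted gene was checked first. Tet3 had 4576 to 5020 normalized counts in Tet3+/+ cells on day 3, 1945 to 2666 in Tet3m/m and 1796 and 2329 in Tet3-/- cells. In the Dnmt1 experiment with the empty vector, Tet3 had 2957 and 3075 normalized counts in Tet3+/+ cells, 1125 and 964 in Tet3m/m cells, and 2520 and 2571 in the libraries labelled Tet3-/-. The log2 difference of the latter from Tet3+/+ was -0.24 ± 0.08 (SE; limma adjusted p = 0.0114), which is under the 1.5-fold threshold. Counts over a whole gene do not resolve the deleted exon, so they do not check the knockout in any of the 3 experiments. Directions for Tet3-/- rest on the label in each. The wording "libraries labelled Tet3-/-" is kept for the Dnmt1 experiment, where Tet3 was within 1.5-fold of Tet3+/+. Tet3 went from 4755 to 5441 with Tet3-CD in Tet3+/+, from 1850 to 5232 in Tet3m/m and from 2070 to 2759 in Tet3-/- cells. Dnmt1 was higher with its vector in each genotype, by 0.64, 0.90 and 1.06 on the log2 scale (limma adjusted p = 5.66e-06, 7.46e-09 and 1.36e-09 in Tet3+/+, Tet3m/m and Tet3-/-). NE markers such as Sox1, Pax6 and Nes were present in each group, but others had means under 10 in some groups. On day 3 these were Otx2 in Tet3+/+, Hes5 in Tet3m/m, and Otx2 and Neurog2 in Tet3-/- cells. In the Dnmt1 experiment they were Otx2 in libraries labelled Tet3-/- with either vector and Neurog2 in Tet3m/m with Dnmt1. In the Tet3-CD experiment they were Neurog2 and Hes5 in Tet3m/m cells with either vector. Markers of pluripotency, endoderm and mesenchyme were measured in each group as well.

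To compare levels between genes, normalized counts were divided by the length of each gene's exons in kilobases. In day 3 Tet3+/+ cells Ccn1 was the most abundant of the 9, with a mean of 8838 normalized counts per kilobase (range 7360 to 9743, n = 3). Ajuba followed with 4700 (4288 to 5512) and Amotl2 with 4429 (4234 to 4548), ranges that overlap. Yap1 had 3207 (3168 to 3258), Tead1 1592 (1505 to 1701), Ccn2 1155 (752 to 1442) and Axl 712 (587 to 877) per kilobase, so Ccn2 and Axl overlapped as well. Lats2 at 199 (185 to 222) and Ankrd1 at 137 (73.5 to 182) were lowest, with ranges that nearly touch. The 9 transcripts thus span a wide range of abundance, with the coactivator Yap1 below 3 of its targets.

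The 250 bases before the start of the members' transcripts were read from RefSeq sequences of GRCm38.p6 and searched for CATTCC, the letters that TEAD proteins recognize, on both strands (GGAATG is the same letters on the other strand). RefSeq windows were matched for 7 of the 9 members, all but Ccn2 and Tead1. Of these 7 members, with 8 windows, 6 held the letters, among them the regulator Yap1. Counted by window and not by gene, 12.6% of all 32851 windows of this length held them. The members were chosen as genes of the YAP-TEAD programme, and the difference from all windows was not tested. Ankrd1 and Ajuba held them at 2 places, and 1.0% of all windows held them at 2 or more. Both windows of Lats2 lacked them, and no member window held a CArG box, the letters SRF recognizes, which 1.5% of all windows held. A match is only a run of letters. The windows of 4 members, shown as examples of windows that hold the letters, at 1 place or at 2, are Ccn1 (chr3:145649986-145650235, minus strand), Ankrd1 (chr19:36119845-36120094, minus strand), Ajuba (chr14:54577662-54577911, minus strand) and Axl (chr7:25788734-25788983, minus strand). They are written 5′ to 3′ on the strand of the gene, up to the base before the start, and capitals mark the TEAD letters:
Ccn1: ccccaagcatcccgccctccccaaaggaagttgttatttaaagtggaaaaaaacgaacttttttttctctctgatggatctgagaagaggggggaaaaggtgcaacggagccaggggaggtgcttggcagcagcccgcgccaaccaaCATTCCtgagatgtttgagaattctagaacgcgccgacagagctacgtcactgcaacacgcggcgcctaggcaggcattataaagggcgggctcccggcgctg
Ankrd1: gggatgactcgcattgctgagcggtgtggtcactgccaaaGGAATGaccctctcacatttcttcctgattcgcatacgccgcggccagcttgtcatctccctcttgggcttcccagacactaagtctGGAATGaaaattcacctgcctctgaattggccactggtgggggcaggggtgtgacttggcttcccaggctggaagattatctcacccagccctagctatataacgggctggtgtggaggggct
Ajuba: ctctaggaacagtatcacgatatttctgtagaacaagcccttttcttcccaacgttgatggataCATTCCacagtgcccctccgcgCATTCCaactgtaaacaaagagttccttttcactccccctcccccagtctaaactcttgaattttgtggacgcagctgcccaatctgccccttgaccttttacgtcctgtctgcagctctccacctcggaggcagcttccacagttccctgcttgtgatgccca
Axl: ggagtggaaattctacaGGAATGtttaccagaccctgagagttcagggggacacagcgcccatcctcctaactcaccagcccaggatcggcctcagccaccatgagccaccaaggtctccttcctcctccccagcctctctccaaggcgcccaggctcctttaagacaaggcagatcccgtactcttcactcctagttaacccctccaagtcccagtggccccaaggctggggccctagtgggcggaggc
The letters begin 103 bases before the start of Ccn1, 210 and 123 bases before that of Ankrd1, 186 and 164 bases before that of Ajuba, and 233 bases before that of Axl.

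**Figure D1:**
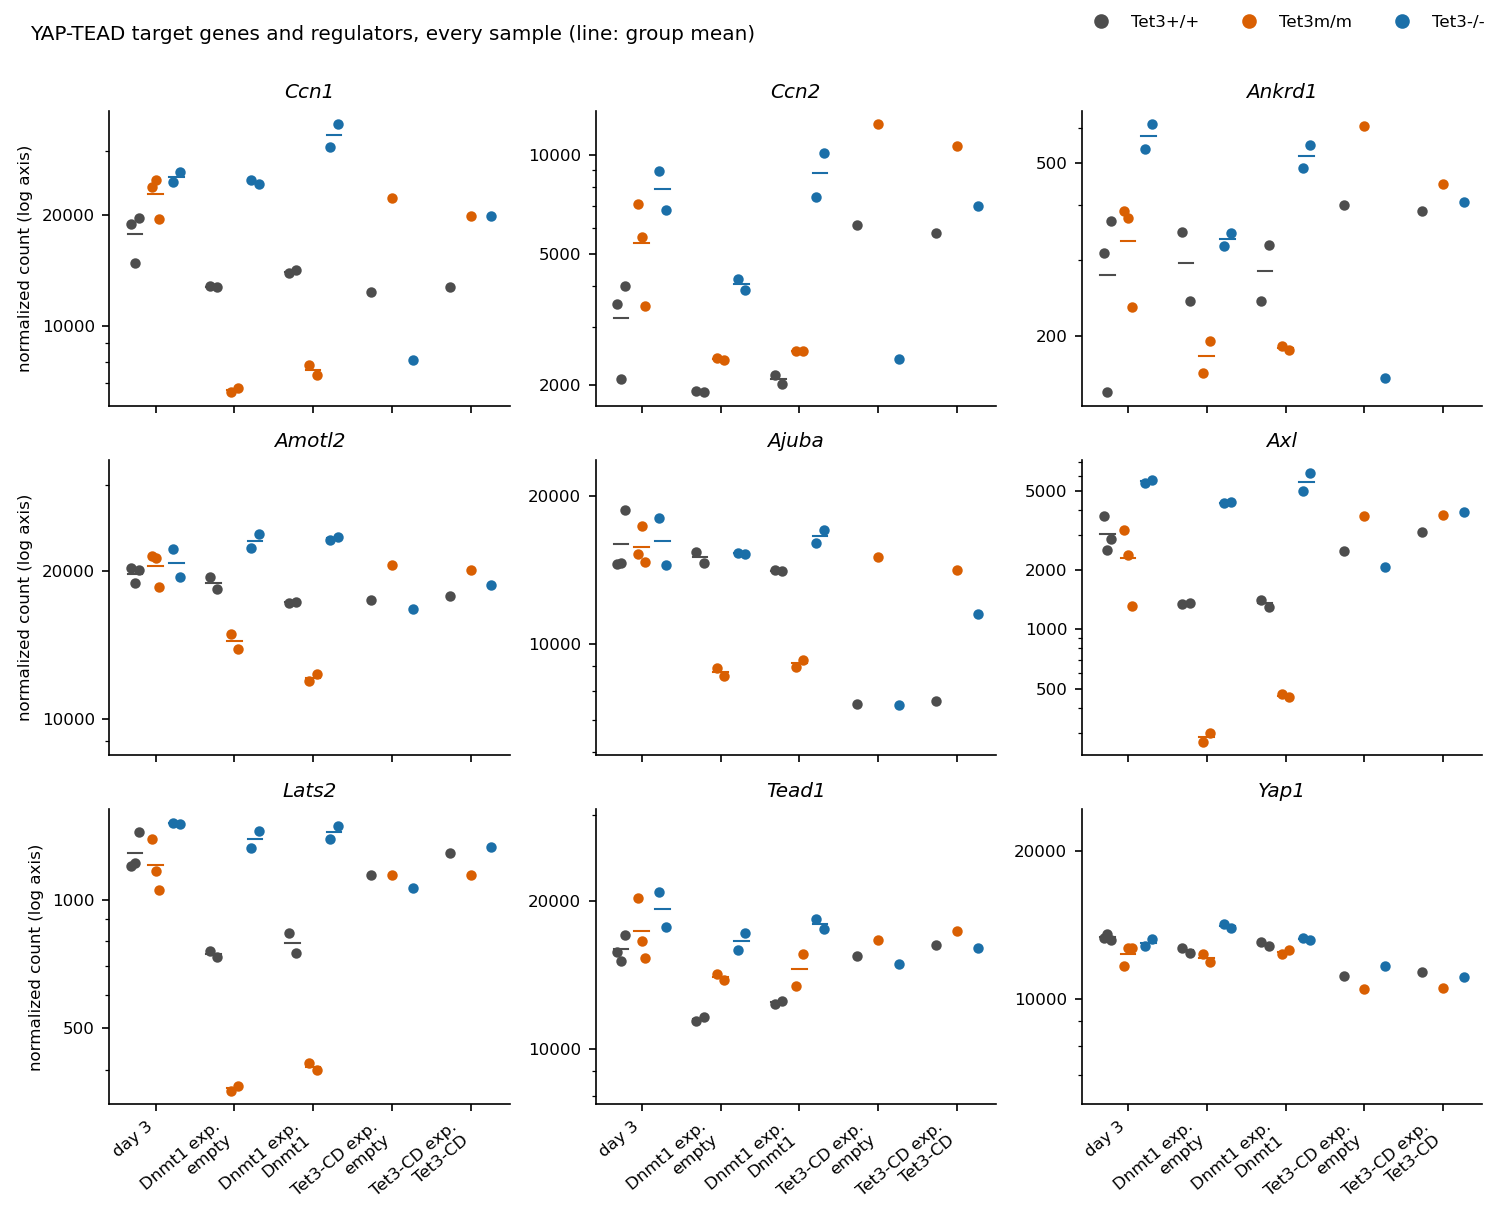
Normalized counts (log axis) of the 9 genes in each of the 26 samples, one panel a gene, with samples grouped by experiment, genotype and vector; each point is 1 sample and each line a group mean. Axl shows the widest spread, from 270 in Tet3m/m cells to 6166 in libraries labelled Tet3-/- of the Dnmt1 experiment, while Yap1 stays between 10464 and 14194.

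The day 3 experiment asks how the loss of catalysis and the loss of TET3 each change these transcripts. Against Tet3+/+ cells, limma called 0 of the 9 in either mutant, where called means an adjusted p under 0.05 and a change over 1.5-fold. Over all genes tested it called 10.2% in Tet3m/m and 0.642% in Tet3-/- cells. Ccn1, Ccn2, Ankrd1, Axl, Lats2 and Tead1 were higher in both Tet3-/- samples than in any Tet3+/+ sample, while Amotl2, Ajuba and Yap1 overlapped. The share of all genes that separate in this way was not counted, so this is a description of the values only. Between the mutants 1 member was called, beside 9.73% of all genes: Axl, which was 2.60-fold higher in Tet3-/- than in Tet3m/m cells.

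Ccn1 had 18997, 14861 and 19672 normalized counts in Tet3+/+ cells, 23931, 24959 and 19581 in Tet3m/m cells, and 24722 and 26204 in Tet3-/- cells. The Tet3-/- samples lay above all Tet3+/+ samples, and the Tet3m/m samples overlapped both. Its log2 difference from Tet3+/+ was 0.36 ± 0.13 (SE) in Tet3m/m (limma adjusted p = 0.0913) and 0.52 ± 0.14 in Tet3-/- cells (limma adjusted p = 0.0854).

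Ccn2 had 3529, 2087 and 3999 normalized counts in Tet3+/+, 7104, 5636 and 3487 in Tet3m/m, and 8947 and 6817 in Tet3-/- cells. Both Tet3-/- samples were above every Tet3+/+ sample, and 1 Tet3m/m sample fell among the Tet3+/+ samples. The log2 differences from Tet3+/+ were 0.75 ± 0.28 (limma adjusted p = 0.0999) in Tet3m/m and 1.34 ± 0.31 (limma adjusted p = 0.0649) in Tet3-/- cells. Leaving out the third Tet3m/m library brought both past the threshold, the former at 1.03 (limma adjusted p = 0.0191) and the latter at the same difference (limma adjusted p = 0.0217), as did leaving out the first for the latter (limma adjusted p = 0.0259).

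Ankrd1 had 311, 149 and 368 normalized counts in Tet3+/+, 387, 374 and 234 in Tet3m/m, and 537 and 614 in Tet3-/- cells, the Tet3-/- samples being the highest. Its difference between Tet3-/- and Tet3+/+ was 1.16 ± 0.35 on the log2 scale (limma adjusted p = 0.112).

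Axl had 3756, 2513 and 2876 normalized counts in Tet3+/+, 3204, 2380 and 1311 in Tet3m/m, and 5515 and 5705 in Tet3-/- cells. Both Tet3-/- samples stood above all others, and Tet3m/m overlapped Tet3+/+. Axl was 1.38 ± 0.30 higher on the log2 scale in Tet3-/- than in Tet3m/m cells (limma adjusted p = 0.0143). That call was lost without either Tet3-/- sample, at 1.41 (limma adjusted p = 0.0652) without the first and 1.36 (limma adjusted p = 0.0674) without the second. Against Tet3+/+ it differed by 0.90 ± 0.30 (limma adjusted p = 0.134, or 0.0234 without the third Tet3m/m library).

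The feedback regulators and the pathway's own factors differed less. Amotl2 ranged from 18600 to 22203 normalized counts over the 8 samples and Ajuba from 14444 to 18726, with overlapping genotypes. Lats2 ranged from 1053 to 1513, both Tet3-/- samples being the highest, and Tead1 from 15131 to 20863. Yap1 had 13324, 13590 and 13213 normalized counts in Tet3+/+ cells, 11680, 12713 and 12681 in Tet3m/m cells and 12799 and 13270 in Tet3-/- cells, so that all Tet3m/m samples were below the others. Its log2 difference between Tet3m/m and Tet3+/+ was -0.12 ± 0.08 (limma adjusted p = 0.37).

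Between Tet3m/m and Tet3+/+ on day 3, where limma called 0 members, 2 of them had an unadjusted p under 0.05 (Ccn1 and Ccn2). There edgeR called 0 members among 1821 genes, and DESeq2 called 1 (Ccn2) among 2312. Between Tet3-/- and Tet3+/+, 4 members had an unadjusted p under 0.05 (Ccn1, Ccn2, Ankrd1 and Axl). The share of all genes under that unadjusted p was not counted in either comparison. For Tet3-/-, edgeR called 0 members among 86 genes, and DESeq2 called 3 among 916: Ccn2 at 1.30 (DESeq2 adjusted p = 0.000596), Ankrd1 at 1.06 (adjusted p = 0.026) and Axl at 0.88 (adjusted p = 0.028). The members' median log2 difference was 0.05 in Tet3m/m, 0.27 in Tet3-/- and 0.17 between the mutants, and that of all genes tested 0, -0.01 and -0.01.

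The empty-vector samples of the Dnmt1 experiment repeat the genotype comparison in transfected, selected cells. Here the genotypes stood apart at most members. Ccn1, Axl, Lats2, Ajuba and Ankrd1 fell in Tet3m/m cells, 5 of 9 beside 10.9% of all genes called lower. Ccn1, Ccn2, Axl and Lats2 rose in libraries labelled Tet3-/-, 4 of 9 beside 11% of all genes called higher. In these libraries 7 of the 9 were higher than in Tet3m/m cells, beside 18.9% of all genes, and Axl was 15.4-fold higher. Yap1 and Tead1 were under 1.5-fold in all 3 genotype comparisons. In bulk RNA, fewer cells of a type and less RNA per cell cannot be told apart.

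Ccn1 had 12838 and 12789 normalized counts in Tet3+/+ cells, 6626 and 6799 in Tet3m/m cells and 24892 and 24331 in the libraries labelled Tet3-/-. The 3 genotypes formed separate steps, low in Tet3m/m and high in Tet3-/-. The log2 difference from Tet3+/+ was -0.93 ± 0.053 in Tet3m/m (limma adjusted p = 3.51e-12) and 0.94 ± 0.053 in the libraries labelled Tet3-/- (limma adjusted p = 4.41e-12).

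Ccn2 followed another order, with 1925 and 1904 normalized counts in Tet3+/+, 2426 and 2387 in Tet3m/m and 4202 and 3899 in libraries labelled Tet3-/-. Tet3+/+ was lowest, and no groups overlapped. It rose by 1.08 ± 0.088 on the log2 scale in libraries labelled Tet3-/- (limma adjusted p = 1.6e-09). In Tet3m/m cells its difference of 0.33 ± 0.088 (limma adjusted p = 0.00395) was under 1.5-fold.

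Axl moved most, from 1345 and 1364 normalized counts in Tet3+/+ to 270 and 298 in Tet3m/m and 4367 and 4411 in libraries labelled Tet3-/-. Samples of a genotype lay close together and the groups far apart. Axl fell by 2.25 ± 0.084 on the log2 scale in Tet3m/m (limma adjusted p = 3.5e-15) and rose by 1.70 ± 0.084 in libraries labelled Tet3-/- (limma adjusted p = 5.97e-13). Between the mutants it differed by 3.95 ± 0.084 (limma adjusted p = 7.72e-20).

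Lats2, whose product is a YAP kinase, had 758 and 734 normalized counts in Tet3+/+, 357 and 367 in Tet3m/m and 1321 and 1449 in libraries labelled Tet3-/-, the order seen for Ccn1 and Axl. It fell by 1.04 ± 0.089 on the log2 scale in Tet3m/m (limma adjusted p = 2.81e-09) and rose by 0.89 ± 0.089 in libraries labelled Tet3-/- (limma adjusted p = 3.21e-08).

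Ajuba had 15402 and 14581 normalized counts in Tet3+/+, 8922 and 8606 in Tet3m/m and 15320 and 15249 in libraries labelled Tet3-/-, so only Tet3m/m stood apart. Its log2 difference was -0.77 ± 0.044 in Tet3m/m (limma adjusted p = 4.05e-12) and 0.028 ± 0.044 in libraries labelled Tet3-/- (limma adjusted p = 0.614). Amotl2 had 19446 and 18441, 14929 and 13905, and 22351 and 23835 normalized counts in the same order of genotypes. These groups did not overlap, but both differences from Tet3+/+ were under 1.5-fold, at -0.39 ± 0.045 (limma adjusted p = 2.65e-07) and 0.28 ± 0.045 (limma adjusted p = 1.87e-05).

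Ankrd1, the least abundant member, had 348 and 241 normalized counts in Tet3+/+, 165 and 195 in Tet3m/m and 323 and 345 in libraries labelled Tet3-/-. Tet3m/m was lowest, while the other two genotypes overlapped. Its fall of 0.69 ± 0.17 on the log2 scale in Tet3m/m (limma adjusted p = 0.00244) was no longer called without the first Tet3+/+ library (-0.42, limma adjusted p = 0.0943) or the first Tet3m/m library (-0.57, under 1.5-fold).

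Tead1 had 11377 and 11618 normalized counts in Tet3+/+, 14194 and 13813 in Tet3m/m and 15885 and 17254 in libraries labelled Tet3-/-, thus lowest in Tet3+/+ like Ccn2. The differences from Tet3+/+ were 0.28 ± 0.056 (limma adjusted p = 0.000227) and 0.53 ± 0.056 (limma adjusted p = 7.9e-08). The latter passed the 1.5-fold threshold without the first library labelled Tet3-/-, at 0.59. Yap1 had 12716 and 12426, 12341 and 11916, and 14194 and 13945 normalized counts. It was slightly higher in libraries labelled Tet3-/-, by 0.16 ± 0.04 (limma adjusted p = 0.00177), and differed by -0.052 ± 0.04 in Tet3m/m (limma adjusted p = 0.319).

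With the empty vector, the members' median log2 difference was -0.68 in Tet3m/m and 0.53 in libraries labelled Tet3-/- against Tet3+/+ and 0.8 between the mutants, beside 0.01, 0 and -0.01 over all genes tested. The comparisons share their samples in pairs.

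**Figure D2:**
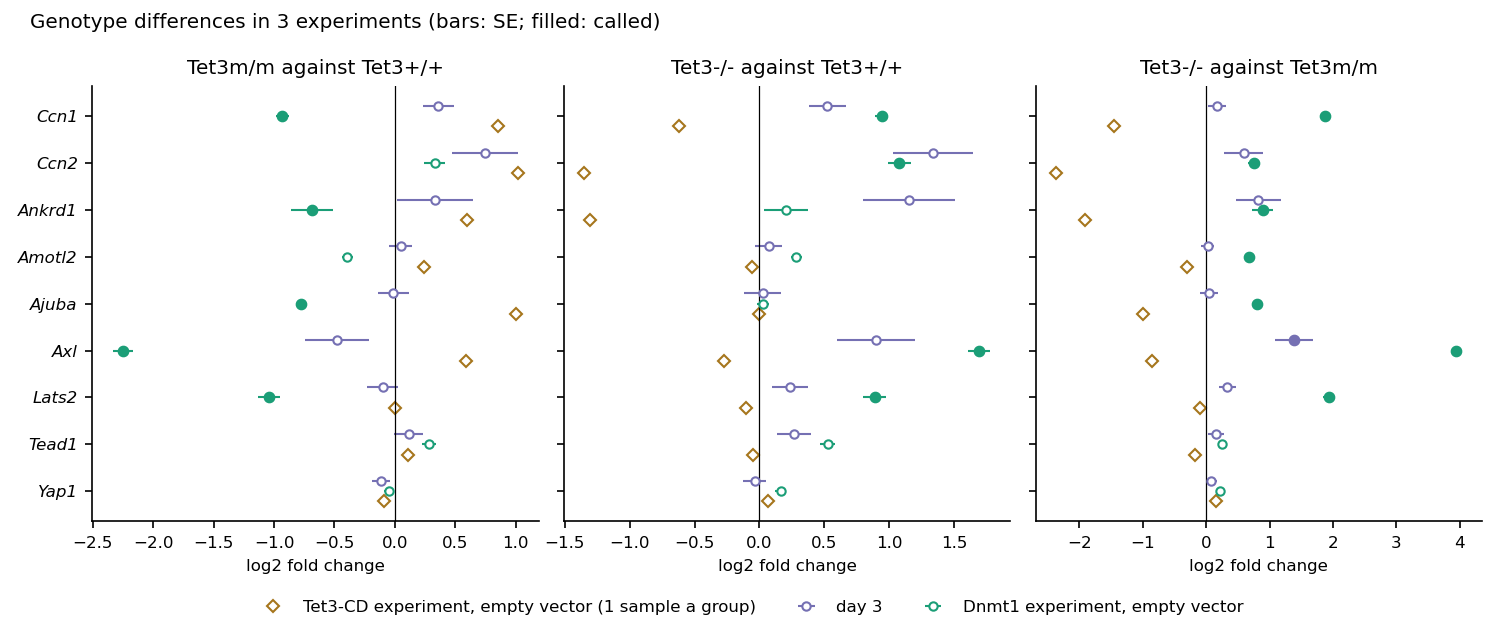
Log2 difference of the 9 genes between genotypes, one panel a comparison; bars are standard errors from limma in the day 3 and Dnmt1 experiments, filled symbols passed the test, and diamonds are the Tet3-CD experiment with 1 sample a group and no error. Axl reached 3.95 between libraries labelled Tet3-/- and Tet3m/m in the Dnmt1 experiment, 1.38 on day 3 and -0.86 in the Tet3-CD samples.

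In the Tet3-CD experiment each group is 1 sample, so the values have no replicate check and no test. With the empty vector the order of the genotypes was another one: most target transcripts were highest in Tet3m/m and lowest in Tet3-/- cells. Ccn1 had 12394 normalized counts in Tet3+/+, 22267 in Tet3m/m and 8087 in Tet3-/- cells. Ccn2 had 6121, 12408 and 2396, and Ankrd1 401, 608 and 161. Ccn2 thus differed by -2.37 on the log2 scale between Tet3-/- and Tet3m/m cells, and Ankrd1 by -1.91.

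Ajuba had 7526, 15031 and 7501 normalized counts in the same order, so Tet3m/m alone was high. Axl had 2493, 3751 and 2067. Amotl2, with 17457, 20643 and 16741, and Lats2, with 1140, 1142 and 1064, stayed within 1.5-fold, as did Tead1 with 15443, 16695 and 14867 and Yap1 with 11154, 10464 and 11682. Against Tet3+/+, 5 members were over 1.5-fold higher in Tet3m/m (Ccn1, Ccn2, Ankrd1, Ajuba and Axl), where 20.2% of all genes were that much higher. In Tet3-/- cells 3 were over 1.5-fold lower (Ccn1, Ccn2 and Ankrd1), where 11.7% of all genes were lower by that much. Between the mutants 5 were lower in Tet3-/- cells, beside 17.8% of all genes.

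Side by side, the log2 difference of Ccn1 between Tet3m/m and Tet3+/+ was 0.36 on day 3, -0.93 with the empty vector of the Dnmt1 experiment, and 0.85 for the single Tet3-CD experiment samples. For Axl the values were -0.48, -2.25 and 0.59. Between Tet3-/- and Tet3+/+ cells, Ccn2 differed by 1.34, 1.08 and -1.35 in the same order of experiments. These differences thus had different signs in different experiments, but not all genotype differences of these genes did. That of Ccn2 between Tet3m/m and Tet3+/+ was 0.75, 0.33 and 1.02 in the same order. The experiments differ in transfection, vector, time of collection and, as far as the methods state, selection, and these cannot be told apart. Their values were normalized separately.

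The Dnmt1 vector asks whether more Dnmt1, the maintenance DNA methyltransferase, moves these transcripts in each genotype. Ccn2 and Ankrd1 rose in libraries labelled Tet3-/-, 2 of 9 beside 2.51% of all genes called higher. Axl rose in Tet3m/m cells, 1 of 9 beside 1.78% of all genes. In Tet3+/+ cells limma called 0 members, beside 1.17% of all genes, and edgeR and DESeq2 also called 0, among 270 and 264 genes. There 2 members (Ccn1 and Amotl2) had an unadjusted p under 0.05, and the share of all genes under it was not counted.

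Ccn2 had 4202 and 3899 normalized counts with the empty vector and 7443 and 10125 with Dnmt1 in libraries labelled Tet3-/-. Both Dnmt1 libraries were higher, though they differed from each other. The rise was 1.10 ± 0.088 on the log2 scale (limma adjusted p = 6.5e-08), or 2.14-fold. In Tet3+/+ cells Ccn2 had 1925 and 1904 with the empty vector and 2147 and 2020 with Dnmt1, and in Tet3m/m cells 2426 and 2387 against 2548 and 2538. The effect in libraries labelled Tet3-/- exceeded that in Tet3+/+ by 0.98 ± 0.13 (limma adjusted p = 3.02e-05) and that in Tet3m/m by 1.02 ± 0.13 (limma adjusted p = 8.42e-06).

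Ankrd1 had 323 and 345 normalized counts with the empty vector and 486 and 549 with Dnmt1 in libraries labelled Tet3-/-, with no overlap. It rose by 0.63 ± 0.17 on the log2 scale (limma adjusted p = 0.018). The call was lost without either empty-vector library (limma adjusted p = 0.112 and 0.0717) and without the second Dnmt1 library (limma adjusted p = 0.139). The difference of its effect from that in Tet3+/+ was 0.68 ± 0.24 (limma adjusted p = 0.0866), and this passed without the second Tet3+/+ library of either vector (limma adjusted p = 0.0272 and 0.0434).

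Ccn1 had 24892 and 24331 normalized counts with the empty vector and 30715 and 35410 with Dnmt1 in libraries labelled Tet3-/-, again higher in both. The difference of 0.42 ± 0.053 on the log2 scale (limma adjusted p = 1.52e-05) was under 1.5-fold. It exceeded the effect in Tet3+/+ by 0.29 ± 0.074 (limma adjusted p = 0.0162), and that in Tet3m/m by 0.24 ± 0.074 (limma adjusted p = 0.0324). The former call was lost without either Tet3+/+ empty-vector library, the first Tet3+/+ Dnmt1 library or the second library labelled Tet3-/- of either vector, at adjusted p-values of up to 0.0785. The latter was lost without any one of the empty-vector libraries of the mutants or the second Dnmt1 library of either, at up to 0.155.

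Axl had 270 and 298 normalized counts with the empty vector and 468 and 453 with Dnmt1 in Tet3m/m cells, a rise of 0.70 ± 0.084 on the log2 scale (limma adjusted p = 7.74e-06). Both values stayed far below the Tet3+/+ libraries, which had 1345 and 1364 with the empty vector and 1409 and 1301 with Dnmt1. The effect in Tet3m/m exceeded that in Tet3+/+ by 0.70 ± 0.12 (limma adjusted p = 0.00256). In libraries labelled Tet3-/- Axl went from 4367 and 4411 to 5037 and 6166, a difference of 0.34 ± 0.084 (limma adjusted p = 0.00822) that was under 1.5-fold. That effect differed from the one in Tet3+/+ by 0.34 ± 0.12 (limma adjusted p = 0.0734), which passed by edgeR (adjusted p = 0.0299) and DESeq2 (adjusted p = 0.038) and without the first Dnmt1 library labelled Tet3-/- (limma adjusted p = 0.00412).

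Ajuba and Amotl2 gave small differences of effect. For Ajuba, libraries labelled Tet3-/- had 15320 and 15249 normalized counts with the empty vector and 16065 and 17070 with Dnmt1, while Tet3+/+ libraries had 15402 and 14581 against 14115 and 14047. The effects thus had opposite signs, and differed by 0.20 ± 0.062 (limma adjusted p = 0.0404), a call that was lost in 8 of the 12 fits that left out 1 library. For Amotl2, Tet3m/m libraries had 14929 and 13905 with the empty vector and 11951 and 12337 with Dnmt1, a difference of -0.25 ± 0.045 (limma adjusted p = 0.001). The effect in libraries labelled Tet3-/- exceeded that in Tet3m/m by 0.26 ± 0.064 (limma adjusted p = 0.00818), a call lost without the first empty-vector library of either mutant (limma adjusted p = 0.0633 and 0.0579). Lats2, Tead1 and Yap1 were not called in any genotype. Yap1 ranged from 11916 to 14194 normalized counts with the empty vector and from 12354 to 13302 with Dnmt1.

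Of the differences between the effects of Dnmt1, 1 member was called higher in Tet3m/m than in Tet3+/+, beside 1.08% of all genes. In libraries labelled Tet3-/-, 3 members exceeded the effect in Tet3+/+, beside 5.24%, and 3 the effect in Tet3m/m, beside 6.65%.

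**Figure D3:**
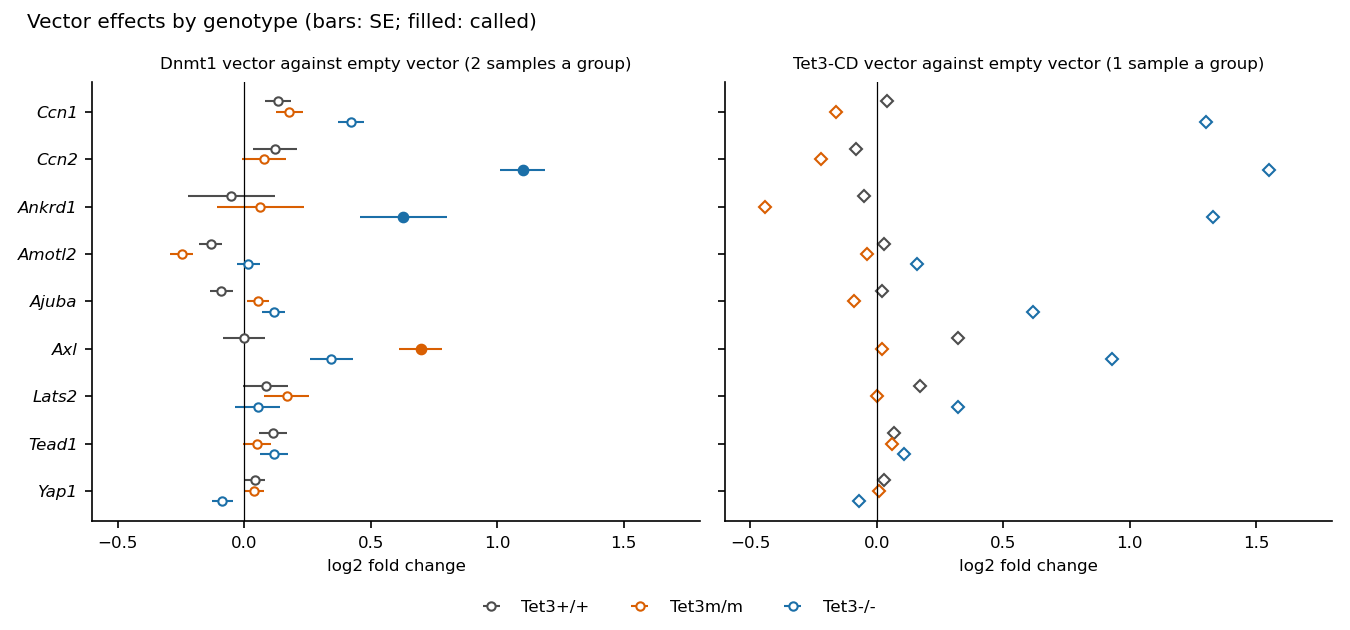
Log2 difference of the 9 genes between the Dnmt1 vector and the empty vector by genotype (limma, bars are standard errors, n = 2 a group) and between Tet3-CD and the empty vector (1 sample a group, no error); filled symbols passed the test. Ccn2 in libraries labelled Tet3-/- is highest in both, at 1.10 with Dnmt1 and 1.55 with Tet3-CD.

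The Tet3-CD samples ask whether the catalytic domain alone moves the transcripts. In Tet3-/- cells, 5 members were over 1.5-fold higher with Tet3-CD than with the empty vector, where 9.89% of all genes were. Tet3 counts went from 2070 to 2759 in that pair of libraries, and from 1850 to 5232 in Tet3m/m cells. Whether the members followed the amount of Tet3 RNA was not tested. Ccn1 went from 8087 to 19951 normalized counts, Ccn2 from 2396 to 7014 and Ankrd1 from 161 to 406. Axl went from 2067 to 3937 and Ajuba from 7501 to 11505. The Ccn1 value with Tet3-CD thus lay between the empty-vector values of Tet3+/+ cells, 12394, and of Tet3m/m cells, 22267.

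In Tet3+/+ cells none of the 9 differed by over 1.5-fold (13.4% of all genes did so in either direction), and Axl, from 2493 to 3119, was the farthest. In Tet3m/m cells none did either, beside 10.1% of all genes, with Ankrd1 going from 608 to 448. Amotl2, Lats2, Tead1 and Yap1 stayed within 1.5-fold in each genotype. These are single libraries, and the Tet3-/- library with the empty vector enters both the genotype and the vector values.

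Other genes of the pathway were described from 3 lists: 28 Hippo pathway components, 25 other YAP-TEAD targets and 14 actin-SRF genes, that is, cytoskeletal and immediate early targets of SRF, a transcription factor that, like YAP, responds to actin. On day 3, 0 Hippo components rose and 1 fell in Tet3m/m against Tet3+/+ cells, Mob1a, a LATS coactivator (-0.95 ± 0.11 on the log2 scale, limma adjusted p = 0.000542). None was called in Tet3-/- cells. Between the mutants 5 were higher in Tet3-/- cells and 0 lower, led by Vgll3, a TEAD cofactor (1.86 ± 0.36, limma adjusted p = 0.0091).

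Among the other targets on day 3, 2 rose and 3 fell in Tet3m/m cells, with Rbms3, an RNA-binding protein, at -1.32 ± 0.17 (limma adjusted p = 0.000841), and 2 rose in Tet3-/- cells, Crim1 at 1.05 ± 0.20 (limma adjusted p = 0.0493) and Fstl1 at 0.99 ± 0.13 (limma adjusted p = 0.0274). Between the mutants 6 were higher in Tet3-/- and 1 lower, with Tgfb2, a TGF-beta ligand, at 1.36 ± 0.32 (limma adjusted p = 0.0208). Of the actin-SRF genes 0 were called in Tet3m/m cells and 3 rose in Tet3-/- cells, among them Myl9, a myosin light chain, at 1.59 ± 0.30 (limma adjusted p = 0.0493). The median log2 difference of the actin-SRF genes from Tet3+/+ was 0.44 in Tet3m/m and 1.14 in Tet3-/- cells, beside 0.05 and 0.27 for the 9 members.

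In the Dnmt1 experiment with the empty vector the lists moved in both directions. Of the Hippo components, 10 fell and 1 rose in Tet3m/m cells (median -0.21), and 10 rose and 0 fell in libraries labelled Tet3-/- (median 0.41). The atypical cadherin Fat4 was at -2.03 ± 0.15 (limma adjusted p = 2.88e-10) and 1.87 ± 0.15 (limma adjusted p = 1.23e-09). The only component that rose in Tet3m/m was Amot, a paralog of Amotl2, at 1.04 ± 0.05 (limma adjusted p = 2.56e-13). Tead3, a paralog of Tead1, was at -1.49 ± 0.073 (limma adjusted p = 3.3e-13) and 0.97 ± 0.073 (limma adjusted p = 5.09e-10).

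Of the other targets, 8 fell and 3 rose in Tet3m/m (median -0.13), and 12 rose and 1 fell in libraries labelled Tet3-/- (median 0.56). Ccdc80, an extracellular matrix protein, fell by 3.65 ± 0.088 on the log2 scale in Tet3m/m (limma adjusted p = 3.42e-18), and was at 2.01 ± 0.088 in libraries labelled Tet3-/- (limma adjusted p = 8.53e-14). Of the 14 actin-SRF genes, 10 fell in Tet3m/m (median -1.32) and 13 rose in libraries labelled Tet3-/- (median 0.99). Acta2, smooth muscle actin, was at -2.68 ± 0.11 (limma adjusted p = 7.77e-15) and 2.44 ± 0.11 (limma adjusted p = 6.33e-14).

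With Dnmt1, 0, 3 and 7 actin-SRF genes rose in Tet3+/+, Tet3m/m and libraries labelled Tet3-/-, and 0 fell. Of the other targets 0, 4 and 3 rose and 0, 0 and 1 fell. Of the Hippo components 2, 2 and 1 rose and 0 fell, with Fat4 at 1.02 in Tet3+/+ and 1.45 in Tet3m/m on the log2 scale. In the Tet3-CD experiment, without a test, 11 actin-SRF genes were over 1.5-fold higher and 0 lower in Tet3m/m than in Tet3+/+ cells. With Tet3-CD in Tet3-/- cells, 11 actin-SRF genes, 9 other targets and 1 Hippo component were over 1.5-fold higher and 0 lower.

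**Figure D4:**
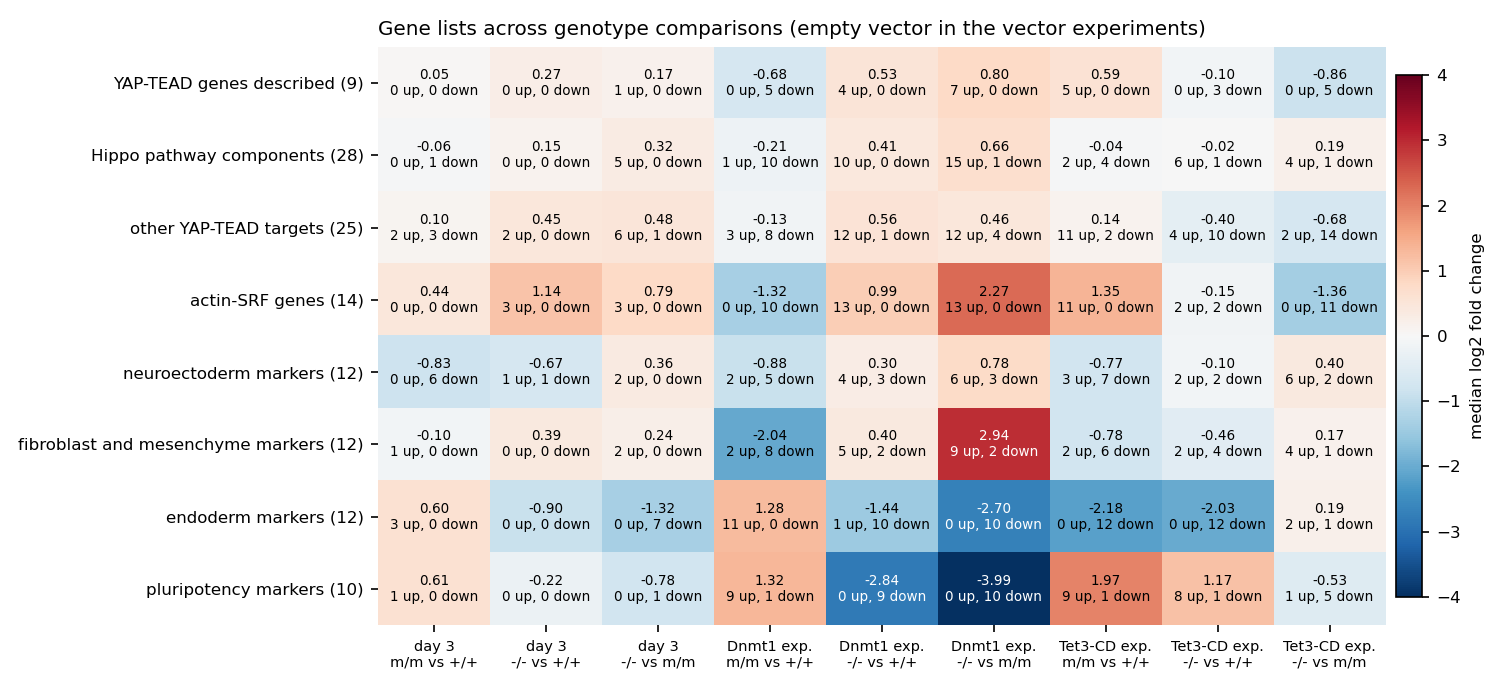
Median log2 difference of the 9 genes, the 3 pathway lists and the marker lists in the genotype comparisons, with the empty vector in the vector experiments (colour and first number), with the number of genes called higher and lower; in the Tet3-CD experiment the numbers are genes over 1.5-fold, without a test. In the Dnmt1 experiment the actin-SRF genes run from -1.32 in Tet3m/m to 2.27 between libraries labelled Tet3-/- and Tet3m/m, and the pluripotency markers the other way, from 1.32 to -3.99.

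Markers of other cell types moved with these groups. In the Dnmt1 experiment with the empty vector, the summed normalized counts of 12 fibroblast and mesenchyme markers were 24138 and 25848 in Tet3+/+, 13065 and 13426 in Tet3m/m and 42682 and 42923 in libraries labelled Tet3-/-, the order of Ccn1, Axl and Lats2. Of these 12, 8 fell and 2 rose in Tet3m/m, and 5 rose and 2 fell in libraries labelled Tet3-/-. The sums of 10 pluripotency markers ran the other way, at 39947 and 40108, 104224 and 106103, and 6147 and 6577. So did those of 12 endoderm markers, at 148145 and 153975, 346482 and 386014, and 55930 and 56593. No marker had a mean of 0 in these groups, although Lum in Tet3+/+, Twist2 in Tet3m/m and Afp in libraries labelled Tet3-/- had means under 10. With Dnmt1 in libraries labelled Tet3-/-, where Ccn2 and Ankrd1 rose, the pluripotency sum was 9502 and 9725, and 7 of the 10 markers rose and 0 fell, Nanog by 2.04-fold. There the fibroblast and mesenchyme sum was 39460 and 49622, with 0 markers that rose and 3 that fell, and the endoderm sum 62987 and 66749, with 1 that rose and 0 that fell. With Dnmt1 in Tet3m/m cells, where Axl rose, 7 fibroblast and mesenchyme markers rose and 0 fell. The part of these cells in the members' differences was not tested.

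On day 3 the fibroblast and mesenchyme sum ranged from 21552 to 33215 in Tet3+/+, from 16377 to 26088 in Tet3m/m and from 47445 to 52784 in Tet3-/- cells, highest in Tet3-/- cells like Ankrd1 and Axl. The sum of 12 NE markers was also higher in Tet3-/- cells, at 34061 to 40197, than in Tet3m/m cells, at 21862 to 27097, and overlapped that in Tet3+/+, at 25540 to 34786. Between the mutants, where Axl was called, 2 fibroblast and mesenchyme and 2 NE markers were higher in Tet3-/- cells and 0 lower, while 7 endoderm markers were lower and 0 higher, Ttr by 8.73-fold. The pluripotency sums overlapped, at 7306 to 12058 in Tet3+/+, 10624 to 26383 in Tet3m/m and 6165 to 10778 in Tet3-/- cells, as did those of endoderm, at 52952 to 69352, 63009 to 86918 and 61766 to 73685. Sums weigh the abundant markers most. Against Tet3+/+ cells, 6 of the 12 NE markers were called lower and 0 higher in Tet3m/m (median log2 difference -0.83). In Tet3-/- cells 1 NE marker was called lower and 1 higher (median -0.67). Of the endoderm markers, 3 were called higher and 0 lower in Tet3m/m (median 0.6). In Tet3-/- cells 0 endoderm markers were called (median -0.9). In the Tet3-CD experiment the endoderm sum with the empty vector was 557008 in Tet3+/+, 115474 in Tet3m/m and 156598 in Tet3-/- cells, while the fibroblast and mesenchyme sum was 45790, 32010 and 29834, another order than that of Ccn1. The NE sum, at 15424, 24009 and 14618, had the order of Ccn1, although 3 of its 12 markers were over 1.5-fold higher and 7 lower in Tet3m/m than in Tet3+/+ cells. The pluripotency sum, at 10116, 25474 and 13317, was also highest in Tet3m/m cells, where 9 of 10 markers were over 1.5-fold higher than in Tet3+/+ cells. With Tet3-CD in Tet3-/- cells the endoderm sum was 92992, the fibroblast and mesenchyme sum 33863, the NE sum 22194 and the pluripotency sum 8211. The ESCs had been grown on feeders, which are fibroblasts, and their part in these values was not tested.

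The genes whose pattern was most like that of the 7 targets were sought over the 26 samples. For each gene, Pearson's r was taken between its log2 values, centred within each experiment, and the mean of the 7. The 5 genes with the highest r were Samd4, Acta2, Tnfaip8, Ptpn21 and Fosl2, each at 0.98 when rounded, among 16812 genes whose median r was 0.01. Of the genes outside the members, 64 had an r over 0.95. The samples share vectors, genotypes and libraries, so r is a description. Ccn1 itself had an r of 0.98 and Axl 0.95, although both enter the mean, as do Lats2 at 0.91, Amotl2 at 0.9, Ankrd1 at 0.87, Ajuba at 0.81 and Ccn2 at 0.8. Tead1 and Yap1, which do not enter it, had 0.61 and 0.35.

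Fosl2, which encodes an AP-1 subunit, had 1666 and 1490 normalized counts in Tet3+/+, 727 and 780 in Tet3m/m and 4944 and 4629 in libraries labelled Tet3-/- of the Dnmt1 experiment with the empty vector. In the Tet3-CD experiment it had 3788, 6960 and 2669 with the empty vector in the same order of genotypes. Fosl2 was picked for its likeness to the targets over these same samples, so sharing the change of order of Ccn1 follows from that choice. Samd4, an RNA-binding protein, had 854 and 891, 269 and 300, and 1879 and 1879 normalized counts in the former and 1370, 2508 and 1179 in the latter.

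The members lie on 6 chromosomes: Ccn1 on 3, Axl and Tead1 on 7, Yap1 and Amotl2 on 9, Ccn2 on 10, Ajuba and Lats2 on 14, and Ankrd1 on 19. The median log2 difference of all genes on these chromosomes ranged from -0.13 to 0.07 over the comparisons, the lowest being chromosome 14 between Tet3-/- and Tet3+/+ cells on day 3.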

How the data were processed

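RNA-seq of 26 samples from 3 experiments was used. The authors trimmed reads with Trim Galore 0.6.7, aligned them with STAR 2.7.9a, assigned them to genes with featureCounts and used DESeq2 for normalization. The paper names mm39 and the labels name mm10. The deposited signal values are normalized counts, each sample's counts divided by a size factor, and 100.0% of values were whole multiples of 1 read, from which reads per library were recovered.

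Genes with a mean of at least 10 were tested (17915 on day 3, 18055 in the Dnmt1 experiment) with limma 3.58.1 (R 4.3.3) on the log2 of the normalized count plus 1, using eBayes with a trend and fitting the groups of each experiment jointly. Log2 differences are on that scale, which understates changes of low genes. p-values were adjusted over all genes tested by the Benjamini-Hochberg method. A call needed an adjusted p under 0.05 and over 1.5-fold, or the adjusted p alone for differences between effects. Replicates were checked against each other by chi-square on recovered reads. Per degree of freedom it was 3.96 to 11.11 in the Dnmt1 experiment and 13.84 to 87.18 on day 3, so no library was counted as a repeat of another. This check cannot tell separate clones from separate preparations of the same clone. Both Tet3+/+ empty-vector columns of the Dnmt1 experiment carry the same name, and they are called first and second by their order. Alternatives tried were a pseudocount of 0.1 or 5, a filter at a mean of 50 or none, edgeR 4.0.16 and DESeq2 1.42.0 on recovered reads, TMM rescaling, the compared groups alone, no fold threshold, a replicate block and each library left out. Exon lengths came from GENCODE vM21, matched by symbol, and promoter windows from RefSeq on GRCm38.p6. The scripts were tested on simulated data. Python 3.11.15, numpy 2.4.6, pandas 2.3.3 and matplotlib 3.10.9 were also used.

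The members and gene lists were chosen with earlier results of these data known. From the lists the called genes with the largest differences, at most 4 per list and comparison, could be named, along with the 9 members, 5 genes of like pattern, and Tet3 and Dnmt1. The individual marker genes named were chosen after their values were seen. Assays of the study other than RNA-seq were not analysed here.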

Additional observations from a re-analysis of the deposited data

Results flagged for a closer look

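In the Dnmt1 experiment the effect of the Dnmt1 vector differed between genotypes for 7 pairs of gene and comparison by limma's interaction test, with the genotype-wise values as given above. Axl differed by 0.70 between Tet3m/m and Tet3+/+ cells (0.70 against -0.001 on the log2 scale), and both Tet3m/m libraries with Dnmt1 were above both with the empty vector. Between libraries labelled Tet3-/- and Tet3+/+, Ccn2 differed by 0.98 (1.10 against 0.12), Ccn1 by 0.29 (0.42 against 0.13) and Ajuba by 0.20 (0.12 against -0.09). Between libraries labelled Tet3-/- and Tet3m/m, Ccn2 differed by 1.02 (1.10 against 0.08), Amotl2 by 0.26 (0.017 against -0.25) and Ccn1 by 0.24 (0.42 against 0.18).

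Some genotype differences over 1.5-fold had one sign in each sample of the Dnmt1 or day 3 experiment and the other in the Tet3-CD experiment. These differences between experiments were not tested. For Tet3m/m against Tet3+/+, the Tet3-CD experiment gave 0.85 for Ccn1, 0.60 for Ankrd1, 1.00 for Ajuba and 0.59 for Axl on the log2 scale, opposite to the Dnmt1 experiment. For Tet3-/- against Tet3+/+, it gave -0.62 for Ccn1, opposite to the Dnmt1 experiment, -1.35 for Ccn2, opposite to both others, and -1.31 for Ankrd1, opposite to day 3. For Tet3-/- against Tet3m/m, it gave -1.46 for Ccn1, -2.37 for Ccn2 and -1.0 for Ajuba, opposite to the Dnmt1 experiment, and -1.91 for Ankrd1 and -0.86 for Axl, opposite to both others.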

How the results depend on the processing

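The numbers of members called kept within 1.5 times of those reported under most alternatives. On day 3, DESeq2 called 1 member among 2312 genes for Tet3m/m and 3 among 916 for Tet3-/- against Tet3+/+, where limma called 0. For Tet3-/-, a fit to the compared groups only called 2 among 664 genes (Ccn2, limma adjusted p = 0.0232, and Axl, limma adjusted p = 0.0203). With no fold threshold, 8 and 7 members differed from Tet3+/+ in Tet3m/m and in libraries labelled Tet3-/- of the Dnmt1 experiment. Of the 18055 genes tested there, 8230 and 9612 did so. With Dnmt1 against the empty vector, 3 and 4 members differed in these genotypes, beside 1842 and 2423 of all genes. With each library left out, the calls on day 3 ranged from 0 to 1 for Tet3m/m and 0 to 2 for Tet3-/- against Tet3+/+ and 0 to 1 between the mutants. With the empty vector they ranged from 4 to 5 for each mutant against Tet3+/+ and stayed at 7 between the mutants, and with Dnmt1 they were 0, 1 and 1 to 2 in Tet3+/+, Tet3m/m and libraries labelled Tet3-/-. Differences of effect gave 1 for Tet3m/m, 1 to 4 for libraries labelled Tet3-/- against Tet3+/+ and 1 to 3 between the mutants, where those of Ccn2 were called in each fit.

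Signs changed only for small differences. Amotl2 between the mutants on day 3 was -0.003 with a replicate block, Axl with Dnmt1 in Tet3+/+ was 0 by DESeq2, and the Yap1 difference of effect between Tet3m/m and Tet3+/+ was 0.004 by edgeR and 0 with TMM rescaling. With libraries left out, the log2 differences in Tet3m/m on day 3 ranged from -0.063 to 0.588 for Ankrd1, -0.085 to 0.108 for Ajuba and -0.002 to 0.2 for Tead1. In Tet3-/- on day 3, Amotl2 ranged from -0.023 to 0.169 and Ajuba from -0.134 to 0.185, and between the mutants from -0.071 to 0.121 and -0.122 to 0.197. With the empty vector, libraries labelled Tet3-/- against Tet3+/+ gave -0.059 to 0.467 for Ankrd1 and -0.011 to 0.068 for Ajuba. With Dnmt1, Ankrd1 ranged from -0.315 to 0.211 and Axl from -0.058 to 0.056 in Tet3+/+, Ankrd1 from -0.056 to 0.183 and Tead1 from -0.058 to 0.157 in Tet3m/m, and Amotl2 from -0.03 to 0.063 and Lats2 from -0.014 to 0.12 in libraries labelled Tet3-/-. Differences of effect in Tet3m/m against Tet3+/+ were -0.002 to 0.092 for Ccn1, -0.086 to 0.002 for Ccn2, -0.148 to 0.378 for Ankrd1, -0.171 to 0.044 for Tead1 and -0.029 to 0.021 for Yap1. In libraries labelled Tet3-/- they were -0.109 to 0.044 for Lats2 and -0.056 to 0.063 for Tead1 against Tet3+/+, and -0.04 to 0.175 for Tead1 against Tet3m/m.

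Over all genes, the 115 calls between Tet3-/- and Tet3+/+ on day 3 became 64 and 223 with pseudocounts of 0.1 and 5, 58 with a mean of at least 50, 916 with DESeq2, 67 with TMM rescaling and 664 in the compared groups only. The latter setting gave 1154 for 1744 between the mutants, 366 for 212 and 419 for 638 with Dnmt1 in Tet3+/+ and in libraries labelled Tet3-/-, and 427 for 236 for the difference of effect in Tet3m/m. With no fold threshold, 3831, 4504 and 7141 genotype calls in the Dnmt1 experiment became 8230, 9612 and 11852, and 212, 444 and 638 with Dnmt1 became 1010, 1842 and 2423. The cause of these shifts was not tested, except that fewer criteria give more calls.

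Replicate numbers did not pair the samples (correlation of same-numbered deviations -0.10 to 0.08 on day 3 and -0.05 to 0.03 in the Dnmt1 experiment). The replicate block left the members called between the mutants at 1 on day 3 and at 7 with the empty vector. Those with Dnmt1 stayed at 1 and 2. The block ended the call of Ccn1 for the difference of effect between the mutants (limma adjusted p = 0.0629). So did a fit to the compared groups only (limma adjusted p = 0.0716). That fit also ended the Ajuba call for libraries labelled Tet3-/- against Tet3+/+ (limma adjusted p = 0.0507). The difference of effect of Axl between the mutants passed with a pseudocount of 5 (limma adjusted p = 0.0495) and a filter at 50 (limma adjusted p = 0.043). No paired analysis was possible because the Tet3+/+ empty-vector columns carry no distinct numbers for comparisons that use them. On depth, Ankrd1 had as few as 149 normalized counts, so it is the member that counting limits most. Calls lost when 1 library was left out were those of Axl between the mutants on day 3, of Ankrd1 in Tet3m/m and with Dnmt1, and the differences of effect of Ccn1, Ajuba and Amotl2.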

Other observations

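For Ccn1, Ccn2, Axl, Lats2, Amotl2, Tead1 and Yap1, the order of the genotype means seen with the empty vector was also seen with the Dnmt1 vector. Among libraries with Dnmt1, the ratio of the mean level in libraries labelled Tet3-/- to that in Tet3+/+ was 4.22 for Ccn2 and 4.13 for Axl. It was 2.35 for Ccn1, 1.83 for Ankrd1, 1.81 for Lats2, 1.44 for Tead1, 1.35 for Amotl2, 1.18 for Ajuba and 1.02 for Yap1. Both samples were above both Tet3+/+ samples for each member. The ratio of Tet3m/m to Tet3+/+ was 0.34 for Axl, 0.514 for Lats2, 0.541 for Ccn1 and 0.647 for Ajuba. It was 0.665 for Ankrd1, 0.702 for Amotl2 and 0.962 for Yap1, and for each of these members both samples were below. For Ccn2 it was 1.22 and for Tead1 1.17, with both samples above. These ratios were not tested, and the share of all genes that separate in this way was not counted.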
